A study of Homo sapiens with 6 samples.

Results

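Aminoacyl-tRNA synthetases join each amino acid to its transfer RNA, the step that sets the genetic code before the ribosome reads it. The human genes described here were the 36 synthetases named by symbol, 20 that serve the cytosol and 16 nuclear genes whose enzymes work in mitochondria. A level could be computed for 35 of the 36, or 19 cytosolic and 16 mitochondrial members, among 17018 genes with a level.

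RNA was measured on Affymetrix Human Exon 1.0 ST arrays, which read most genes with many probe sets along the transcript. The cells were Huh-7, an established human hepatocellular carcinoma line, grown for 24 hours with 0.5 mM amiloride, a potassium-sparing diuretic that blocks sodium channels and sodium-proton exchange, or left untreated for 24 hours as control, with 3 arrays per group that the labels call biological replicates. Nothing in them says how separate the cultures were, so the p-values measure only the spread between these arrays. The drug was dissolved in DMSO, and the labels do not say whether the control dishes received DMSO. The study was concerned with how amiloride alters RNA splicing. Values are log2 intensities, either as the authors deposited them or after each array was centred on its own median, and a gene level is the median over the gene's probe sets.

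Synthetases fall into 2 unrelated structural classes, I and II, and most amino acids have separate genes for the cytosolic and the mitochondrial enzyme. KARS1 and GARS1 are exceptions, since each gene encodes both forms and is counted here as cytosolic, and EPRS1 carries the glutamyl and the prolyl enzyme in 1 protein. In the cytosol several synthetases are held together in the multisynthetase complex by scaffold proteins, and many cytosolic synthetase genes are known targets of ATF4, the transcription factor made when amino acids run short or when the initiation factor eIF2 is phosphorylated.

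The 8-base element TTGCATCA, or TGATGCAA on the other strand, is the composite C/EBP-ATF site known from amino acid response genes, and it is shown because it occurred in several of the cytosolic and in none of the mitochondrial promoters read here. RefSeq promoters (GRCh38.p14, 250 bases before to 50 bases after the gene start) matched 30 of the 36 members. The element occurred in 6 of 16 cytosolic genes (37.5%) and in 0 of 14 mitochondrial genes, against 295 of 27305 genes with such a promoter (1.08%). The 30-base windows below run 5′ to 3′ along the gene's own strand, with the element in capitals.
AARS1: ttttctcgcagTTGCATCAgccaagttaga
CARS1: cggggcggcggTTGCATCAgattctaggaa
IARS1: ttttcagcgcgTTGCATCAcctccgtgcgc
MARS1: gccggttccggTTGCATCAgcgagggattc
NARS1: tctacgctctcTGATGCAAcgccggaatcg
TARS1: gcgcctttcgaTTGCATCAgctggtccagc

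On GRCh38.p14 these windows were chr16:70289675-70289704 (minus strand) for AARS1, chr11:3057407-3057436 (minus) for CARS1, chr9:92293692-92293721 (minus) for IARS1, chr12:57488053-57488082 (plus) for MARS1, chr18:57621804-57621833 (minus) for NARS1 and chr5:33440956-33440985 (plus) for TARS1. In AARS1 the element began at -187 relative to the gene start and in the other genes it lay within 22 bases of it. NARS1 alone carried it in the reverse orientation, at 15 to 22. It lay inside the transcribed part in NARS1 and also in TARS1 (3 to 10), and it spanned the gene start in CARS1 and MARS1. A match describes these letters and is not a measured binding site. The other members with a matched promoter have only no such letters in this window, and the members without one were not read.

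The arrays were not on one scale of brightness. Median intensities were 12.0, 4.71 and 6.26 on the amiloride arrays and 13.1, 5.08 and 6.42 on the control arrays, and control replicate 1 correlated with the other arrays over genes by only 0.64 to 0.72. As deposited, limma gave 2 of 17018 genes higher in amiloride (0.0118%) and 0 lower at an adjusted p under 0.05. At an unadjusted p under 0.05 it gave 278 higher (1.63%) and 12 lower (0.0705%), and the groups did not overlap for 1137 genes with amiloride above (6.68%) and 32 with amiloride below (0.188%). After centring limma also called 2 genes higher (0.0118%) and 0 lower. The shares without overlap were then 18.5% above and 1.96% below, and those at an unadjusted p under 0.05 were 14.8% higher and 0.77% lower. The 11 measured hepatocyte markers, among them ALB and APOA1, lay at a median percentile of 99.1 to 99.7 of all gene levels on the 6 arrays, while the 4 endothelial markers lay at 13.1 to 27.7. The log2 of the summed centred intensities of the endothelial markers was 5.57 to 5.81 with amiloride and 5.68 to 5.71 in control cells. The 4 leukocyte markers lay at 30.6 to 59.9. All 6 fibroblast and stellate markers had negative log2 fold changes as deposited, from -0.72 to -0.0086, with median percentiles of 20.4 to 27.0 with amiloride and 31.2 to 47.7 in control cells. The log2 of their summed centred intensities was 6.16 to 7.23 with amiloride and 6.41 to 7.23 in control cells, and their part in the results was not tested.

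No synthetase was called. As deposited, 0 of 35 members passed an adjusted p under 0.05 in either direction (limma), 0 had an unadjusted p under 0.05, and in 0 were the groups without overlap. The smallest adjusted p was 1.00, with one standard error of 0.69 shared by all genes. That error includes differences in brightness between the arrays. After centring, 0 of 35 were called. An unadjusted p under 0.05 was reached by 4 members with higher levels (WARS1, FARS2, IARS2 and YARS2) and 1 with a lower level (AARS1). Of all genes 14.8% were higher and 0.77% lower at that threshold. Amiloride arrays then lay wholly above control arrays for 4 members (FARSA, FARS2, IARS2 and YARS2) and wholly below for 1 (AARS1), beside the 18.5% and 1.96% of all genes. Single arrays weighed on these counts. After centring, control replicate 1 was the lowest of the 6 arrays for 19 of the 35 members (34.8% of all genes), and amiloride replicate 1 was the highest for 19 (32.3% of all genes), and their part in the results was not tested beyond leaving each array out. With each array left out in turn after centring, 16 of the 35 fold changes changed sign and 32 moved by over 1.5 times or changed sign, all but those of AARS1, FARSA and IARS2.

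**Figure D1:**
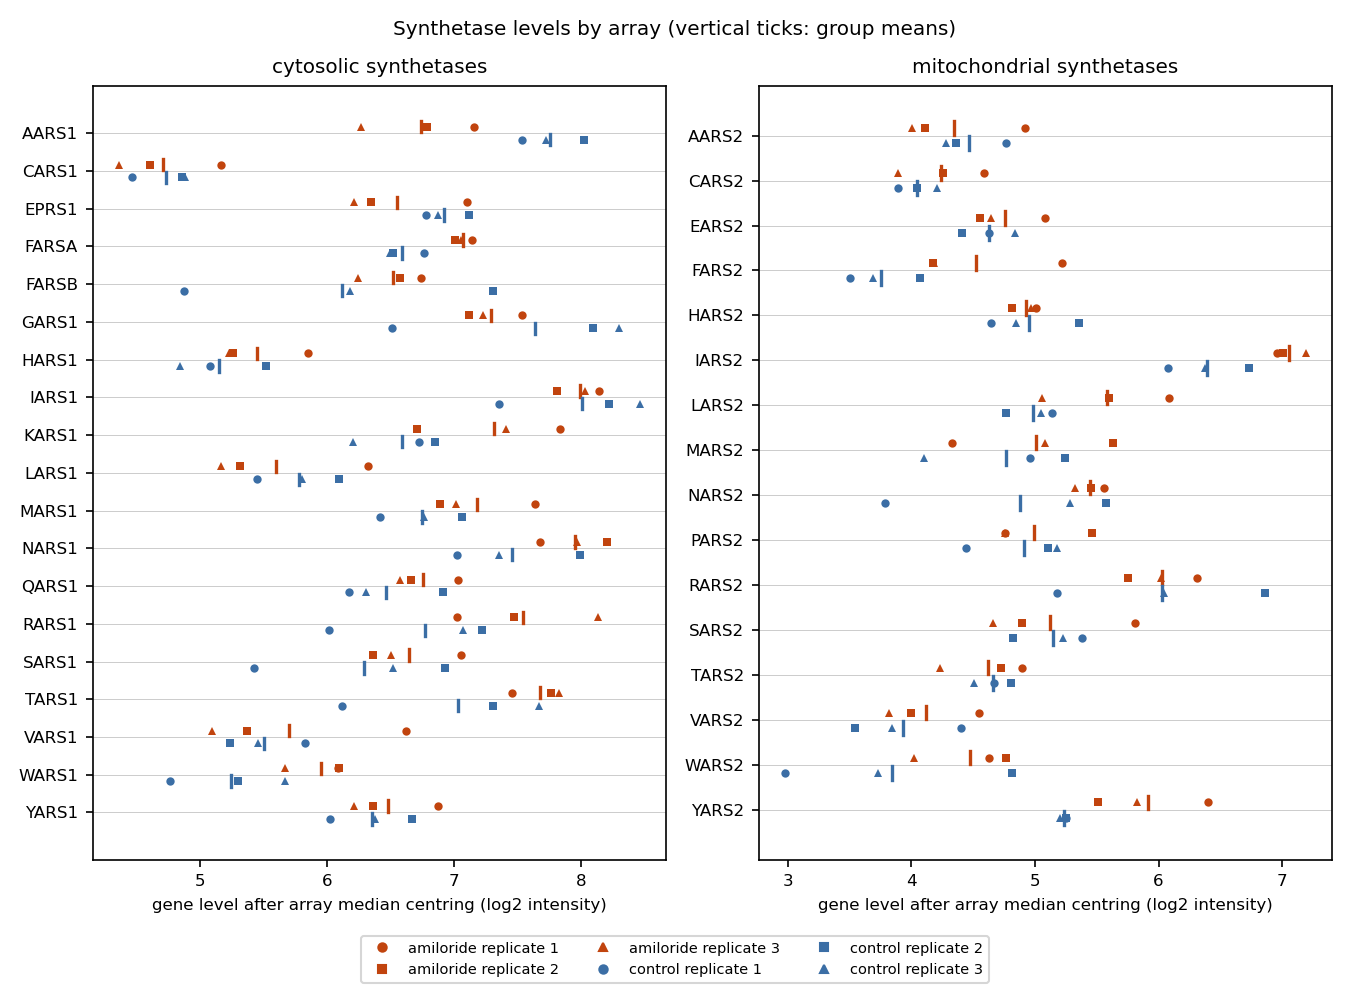
Gene level of each synthetase on every array, in log2 intensity after each array was centred on its median. Red points are amiloride and blue points control arrays, symbols give the replicate number and vertical ticks the group means; AARS1 is the only member whose amiloride arrays (6.27 to 7.16) all lie below its control arrays (7.53 to 8.02).

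AARS1, the cytosolic alanyl-tRNA synthetase, had the lowest fold change of the family. As deposited its level was 7.87, 6.15 and 6.05 on the amiloride arrays and 8.37, 7.50 and 7.54 on the control arrays. The first amiloride array is a bright array and lay among the controls, while the other 2 lay below all of them. After centring the levels were 7.16, 6.78 and 6.27 with amiloride and 7.53, 8.02 and 7.72 in control cells, and the groups did not overlap. The log2 fold change was -1.11 ± 0.69 (SE) as deposited, or 2.16-fold lower, and -1.02 ± 0.30 after centring, or 2.03-fold lower (limma, unadjusted p = 0.00695, adjusted p = 0.164). With 1 array left out the centred value ran from -1.23 without amiloride replicate 1 to -0.79 without amiloride replicate 3. Of all genes 0.188% had a fold change as low or lower. Centring shifts every fold change by the same amount, so this share is the same on either scale by construction. In RNA from a whole culture, less of a transcript per cell and fewer cells that carry it cannot be told apart.

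The probe sets along AARS1 lay on the same side. All 25 of 25 lay lower with amiloride on either scale, from -1.38 to -0.51 after centring. After centring 12 of them had amiloride arrays wholly below control arrays, where 2.84% of all probe sets with 1 gene symbol did. As deposited only 1 of them did, beside 0.458% of all probe sets with 1 gene symbol. Of 11147 genes with at least 10 kept probe sets, 39 (0.35%) had every probe set lower. Probe sets of 1 gene share the same 6 arrays and are not replicates, and limma called 0 of the 25. RefSeq lists 1 or more pseudogenes for AARS1, CARS1, FARSB, GARS1, KARS1, NARS1, RARS1, WARS1, IARS2, TARS2 and WARS2, and their share in these readings was not tested.

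Of the other cytosolic enzymes, RARS1, KARS1, WARS1 and TARS1 had the highest fold changes. RARS1, the arginyl enzyme of the complex, had centred levels of 7.02, 7.47 and 8.13 with amiloride and 6.01, 7.22 and 7.07 in control cells. Amiloride replicate 1 lay among the controls and control replicate 1 was far below the other 2. For RARS1 the log2 fold change was 0.69 as deposited and 0.77 ± 0.39 (SE) after centring (limma, unadjusted p = 0.0787, adjusted p = 0.395). RARS1 had leave-one-out fold changes from 0.40 without control replicate 1 to 1.03 without amiloride replicate 1.

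KARS1, the lysyl enzyme, read 7.83, 6.70 and 7.41 after centring with amiloride and 6.73, 6.85 and 6.20 in control cells, so that amiloride replicate 2 lay within the control range. For KARS1 the log2 fold change was 0.64 as deposited and 0.72 ± 0.34 (SE) after centring (limma, unadjusted p = 0.0593, adjusted p = 0.349). KARS1 had leave-one-out fold changes from 0.34 without amiloride replicate 1 to 1.03 without amiloride replicate 2. WARS1, the tryptophanyl enzyme, which is also known as an interferon-induced gene, read 6.08, 6.09 and 5.67 with amiloride and 4.76, 5.30 and 5.67 in control cells. Amiloride replicate 3 and control replicate 3 were nearly equal. For WARS1 the log2 fold change was 0.62 as deposited and 0.71 ± 0.30 (SE) after centring (limma, unadjusted p = 0.0426, adjusted p = 0.299). WARS1 had leave-one-out fold changes from 0.43 without control replicate 1 to 0.92 without control replicate 3.

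TARS1, the threonyl enzyme, read 7.46, 7.76 and 7.82 with amiloride and 6.12, 7.31 and 7.67 in control cells, where control replicate 1 stood lowest and control replicate 3 lay among the amiloride arrays. For TARS1 the log2 fold change was 0.56 as deposited and 0.65 ± 0.39 (SE) after centring (limma, unadjusted p = 0.124, adjusted p = 0.486). TARS1 had leave-one-out fold changes from 0.21 without control replicate 1 to 0.97 without control replicate 3.

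FARSA and FARSB encode the catalytic and the other subunit of the cytosolic phenylalanyl enzyme. FARSA read 7.14, 7.01 and 7.05 with amiloride and 6.76, 6.52 and 6.49 in control cells, with all amiloride arrays above all control arrays. For FARSA the log2 fold change was 0.39 as deposited and 0.48 ± 0.24 (SE) after centring (limma, unadjusted p = 0.0789, adjusted p = 0.395). FARSA had leave-one-out fold changes from 0.43 without control replicate 3 to 0.56 without control replicate 1. FARSB read 6.74, 6.57 and 6.24 with amiloride and 4.87, 7.30 and 6.18 in control cells, and its control arrays spanned the amiloride arrays on both sides, with a log2 fold change of 0.40 after centring that turned direction with 1 array left out (-0.22 without control replicate 1 to 0.99 without control replicate 2). NARS1, the asparaginyl enzyme, had a fold change of 0.50 after centring (0.28 without control replicate 1 to 0.84 without control replicate 2) and all of its 19 kept probe sets higher, which 5.91% of genes with at least 10 kept probe sets also showed.

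Below the median of all genes stood, beside AARS1, the members EPRS1, GARS1, LARS1, CARS1, IARS1 and YARS1. EPRS1 read 7.10, 6.35 and 6.21 with amiloride and 6.78, 7.11 and 6.87 in control cells, and 28 of its 34 kept probe sets were lower after centring. Amiloride replicates 2 and 3 were below every control array and replicate 1 was nearly as high as the highest. For EPRS1 the log2 fold change was -0.46 as deposited and -0.37 ± 0.30 (SE) after centring (limma, unadjusted p = 0.247, adjusted p = 0.664). EPRS1 had leave-one-out fold changes from -0.64 without amiloride replicate 1 to -0.20 without amiloride replicate 3.

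GARS1, the glycyl enzyme, read 7.54, 7.12 and 7.23 with amiloride and 6.51, 8.09 and 8.30 in control cells. Control replicate 1 lay below all amiloride arrays, and control replicates 2 and 3 lay above all of them. For GARS1 the log2 fold change was -0.43 as deposited and -0.34 ± 0.44 (SE) after centring (limma, unadjusted p = 0.454, adjusted p = 0.838). GARS1 had leave-one-out fold changes from -0.90 without control replicate 1 to -0.0081 without control replicate 3. LARS1, the leucyl enzyme, had a fold change of -0.18 after centring with overlapping groups (-0.54 without amiloride replicate 1 to 0.037 without amiloride replicate 3).

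The groups overlapped for the remaining 8 cytosolic members. MARS1 (methionyl), SARS1 (seryl), HARS1 (histidyl), QARS1 (glutaminyl) and VARS1 (valyl) had log2 fold changes after centring of 0.43, 0.35, 0.30, 0.29 and 0.19, against a median of 0.16 over all genes. For CARS1 (cysteinyl), IARS1 (isoleucyl) and YARS1 (tyrosyl) the values were -0.026, -0.017 and 0.13. Of these 8, SARS1, VARS1, CARS1, IARS1 and YARS1 changed sign with 1 array left out, SARS1 to -0.082 without control replicate 1, while MARS1 ran from 0.18 without amiloride replicate 1 to 0.59 without control replicate 2.

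**Figure D2:**
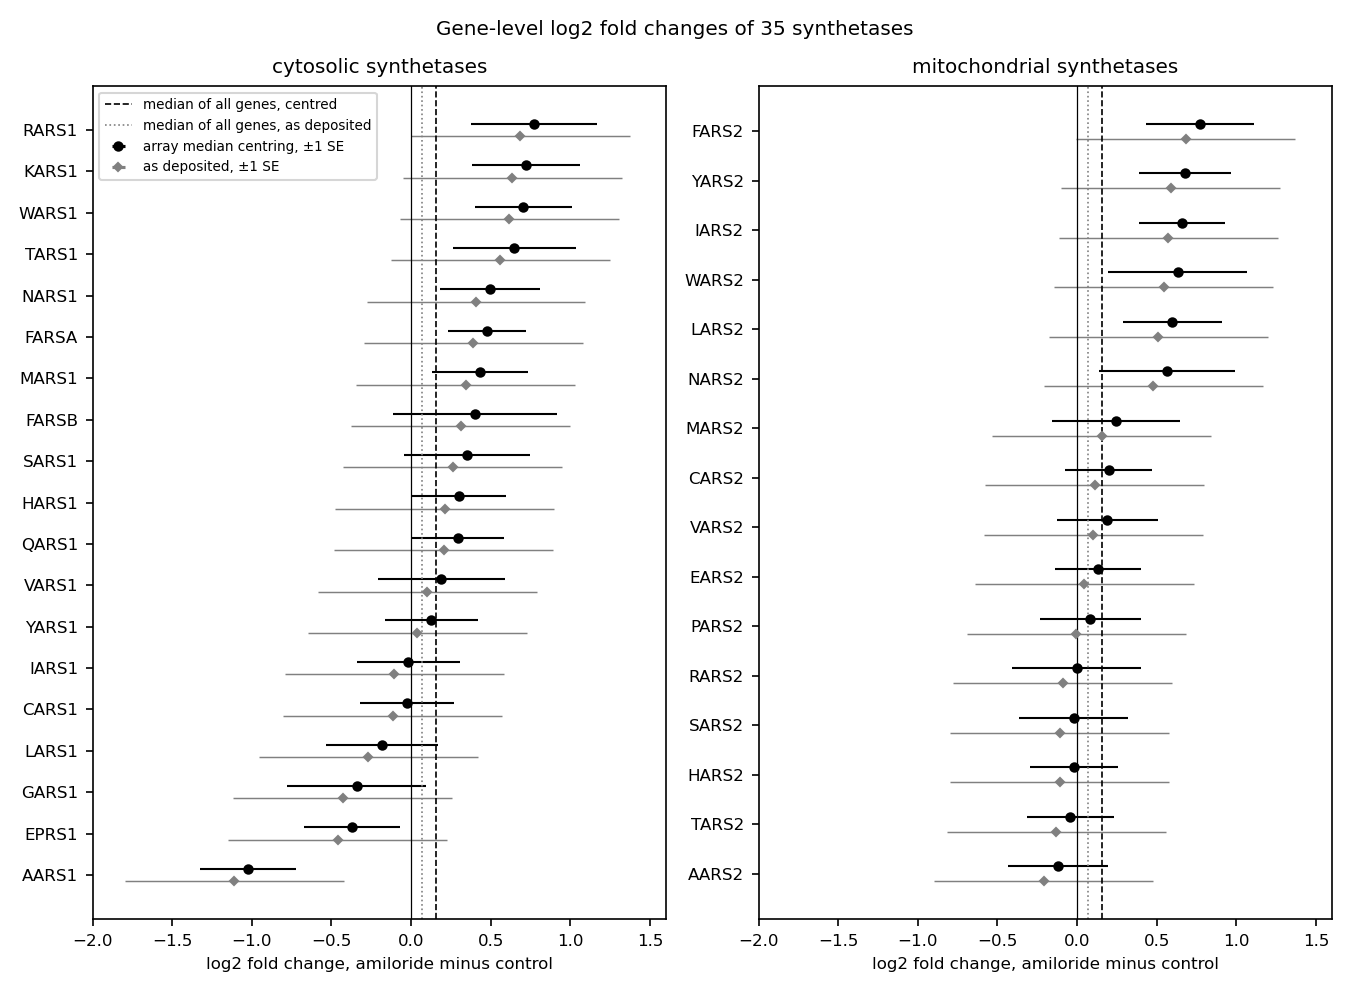
Log2 fold change, amiloride minus control, of the 35 members with 1 SE, black after array median centring and grey as deposited, beside the medians of all genes (0.16 and 0.068). AARS1 stands at -1.02 after centring and -1.11 as deposited, apart from the other cytosolic members, which run from -0.37 to 0.77 after centring.

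Among the 16 mitochondrial members, 9 lay above the median of all genes and 7 below. FARS2, the mitochondrial phenylalanyl enzyme, read 5.22, 4.17 and 4.19 after centring with amiloride and 3.50, 4.07 and 3.69 in control cells. Amiloride replicate 1 stood well above the rest, and the other amiloride arrays cleared the highest control array narrowly. For FARS2 the log2 fold change was 0.68 as deposited and 0.77 ± 0.34 (SE) after centring (limma, unadjusted p = 0.0473, adjusted p = 0.313). FARS2 had leave-one-out fold changes from 0.42 without amiloride replicate 1 to 0.95 without amiloride replicate 2.

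IARS2, the isoleucyl enzyme, read 6.96, 7.01 and 7.19 with amiloride and 6.08, 6.73 and 6.38 in control cells, with all amiloride arrays above all control arrays. For IARS2 the log2 fold change was 0.57 as deposited and 0.66 ± 0.27 (SE) after centring (limma, unadjusted p = 0.0342, adjusted p = 0.274). IARS2 had leave-one-out fold changes from 0.50 without control replicate 1 to 0.83 without control replicate 2. Of its 32 kept probe sets 30 were higher after centring and 14 were without overlap above, where 13.3% of probe sets with 1 gene symbol were. As deposited 4 were without overlap above, beside 6.08% of probe sets with 1 gene symbol.

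YARS2, the tyrosyl enzyme, read 6.40, 5.51 and 5.82 with amiloride and 5.25, 5.26 and 5.20 in control cells. Its control arrays were nearly equal and all amiloride arrays lay above them. For YARS2 the log2 fold change was 0.59 as deposited and 0.68 ± 0.29 (SE) after centring (limma, unadjusted p = 0.0411, adjusted p = 0.295). YARS2 had leave-one-out fold changes from 0.43 without amiloride replicate 1 to 0.88 without amiloride replicate 2.

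LARS2, the leucyl enzyme, read 6.09, 5.60 and 5.06 with amiloride and 5.14, 4.76 and 5.05 in control cells, where amiloride replicate 3 met the control range. All of its 27 kept probe sets were higher after centring, which 5.91% of genes with at least 10 kept probe sets also showed. For LARS2 the log2 fold change was 0.51 as deposited and 0.60 ± 0.31 (SE) after centring (limma, unadjusted p = 0.0836, adjusted p = 0.406). LARS2 had leave-one-out fold changes from 0.35 without amiloride replicate 1 to 0.86 without amiloride replicate 3. WARS2 and NARS2, the tryptophanyl and asparaginyl enzymes, had fold changes of 0.63 and 0.57 after centring, and for both control replicate 1 was the lowest array. With 1 array left out WARS2 ran from 0.20 without control replicate 1 to 1.26 without control replicate 2 and NARS2 from 0.018 without control replicate 1 to 0.91 without control replicate 2.

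The other mitochondrial members had smaller fold changes. MARS2, CARS2, VARS2, EARS2 and PARS2 (methionyl, cysteinyl, valyl, glutamyl and prolyl) ran from 0.084 to 0.24 after centring, and PARS2 was read by only 4 probe sets and changed sign between the scales (-0.0046 as deposited). RARS2, SARS2, HARS2, TARS2 and AARS2 (arginyl, seryl, histidyl, threonyl and alanyl) ran from -0.12 to -0.0026, with overlapping groups in each. With 1 array left out all of these 10 but CARS2 changed sign.

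As a list, the cytosolic members had a median log2 fold change of 0.21 as deposited and the mitochondrial members 0.11, beside 0.068 for all genes. After centring the medians were 0.30, 0.19 and 0.16. Of 19 cytosolic members 12 lay above the median of all genes and 7 below. Centring shifts every fold change alike and cannot alter these counts. Without control replicate 1 the majority turned, with 9 above and 10 below. Without that array 7 mitochondrial members lay above and 9 below. The spread within each list, from -1.02 to 0.77 for cytosolic and from -0.12 to 0.77 for mitochondrial members after centring, was far wider than the difference of 0.10 between the medians. Without control replicate 3 the difference was -0.015, and without control replicate 2 it was 0.19.

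The difference between the median cytosolic and the median mitochondrial level was also taken within each array. A brightness shift shared by all genes cancels there, but one that differs with intensity does not. It was 2.01, 1.81 and 1.79 on the amiloride arrays and 1.46, 2.11 and 1.65 on the control arrays. The amiloride arrays lay within the range of the control arrays, and the means were 1.87 ± 0.12 with amiloride and 1.74 ± 0.33 in control cells (SD, n = 3 each). This score over the members was not tested.

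By structural class, the 9 class I cytosolic members had a median fold change of 0.19 after centring, with 5 above the median of all genes, and the 9 class II members 0.40, with 7 above. EPRS1 spans both classes and was left out of this split. The 7 measured enzymes of the multisynthetase complex (EPRS1, IARS1, KARS1, LARS1, MARS1, QARS1 and RARS1) had a median of 0.29, with 4 above the median of all genes, and the 12 cytosolic members outside it 0.33, with 8 above. Within the complex the fold changes ran from -0.37 for EPRS1 to 0.77 for RARS1.

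Of the 6 members with the promoter element, AARS1 lay lowest (-1.02 after centring), CARS1 and IARS1 were close to 0 (-0.026 and -0.017), and MARS1, NARS1 and TARS1 were positive (0.43, 0.50 and 0.65). The members that share these letters thus lay on both sides of the median of all genes, 3 above and 3 below.

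Enzymes for the same amino acid were then set against each other within each array, in 15 cytosolic and mitochondrial pairs over 14 amino acids. The cytosolic minus mitochondrial level was on average higher with amiloride in 7 pairs and lower in 8, with a median difference of -0.070 between the groups. In 4 pairs all amiloride arrays lay below all control arrays and in 0 pairs above, a description with no test and no share over other genes beside it.

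For alanine, AARS1 minus AARS2 was 2.23, 2.67 and 2.26 with amiloride and 2.77, 3.65 and 3.44 in control cells, a difference of -0.90. For leucine, LARS1 minus LARS2 was 0.23, -0.29 and 0.11 with amiloride and 0.31, 1.33 and 0.75 in control cells, a difference of -0.78. In the alanine pair the log2 fold changes as deposited were -1.11 for the cytosolic and -0.21 for the mitochondrial enzyme, and in the leucine pair they were -0.27 and 0.51.

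For isoleucine, IARS1 minus IARS2 was 1.18, 0.80 and 0.83 with amiloride and 1.28, 1.49 and 2.08 in control cells, a difference of -0.68. For cysteine, CARS1 minus CARS2 was 0.57, 0.35 and 0.46 with amiloride and 0.57, 0.81 and 0.67 in control cells, a difference of -0.22, where amiloride replicate 1 and control replicate 1 were almost equal. In the opposite direction stood arginine and threonine, with differences of 0.78 and 0.69 and overlapping arrays.

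**Figure D3:**
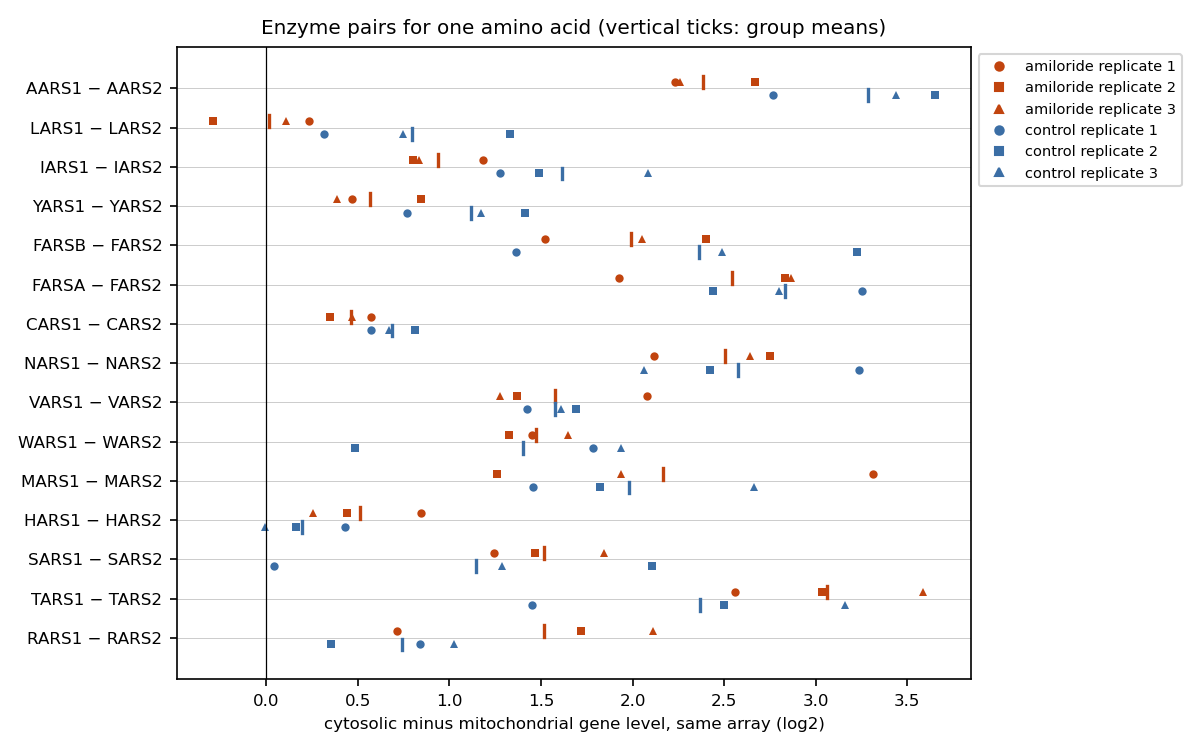
Cytosolic minus mitochondrial gene level on the same array for 15 pairs of synthetases (log2), red for amiloride and blue for control arrays, with vertical ticks at the group means. The alanine, leucine, isoleucine and cysteine pairs have all 3 amiloride arrays below all 3 control arrays.

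The members were read by 899 probe sets, of which 826 had a mean level at or above the median of all probe sets. Limma, fitted over all kept probe sets, called 0 of the 826 on either scale. As deposited it called 0.00882% of probe sets with 1 gene symbol higher and 0.00441% lower, and none of them after centring. At an unadjusted p under 0.05, 8 member probe sets were higher and 2 lower as deposited (1.79% and 0.352% of probe sets with 1 symbol), and 30 higher and 13 lower after centring (8.37% and 0.885%). As deposited, 26 had amiloride arrays wholly above control arrays (6.08% of all) and 1 wholly below (0.458%). After centring, 73 of them (8.84%) had amiloride arrays wholly above control arrays and 21 (2.54%) wholly below, beside 13.3% and 2.84% of all probe sets with 1 gene symbol. The 508 cytosolic probe sets held 40 above and 18 below, 12 of the 18 in AARS1, and the 318 mitochondrial probe sets held 33 above and 3 below, 14 of the 33 in IARS2.

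**Figure D4:**
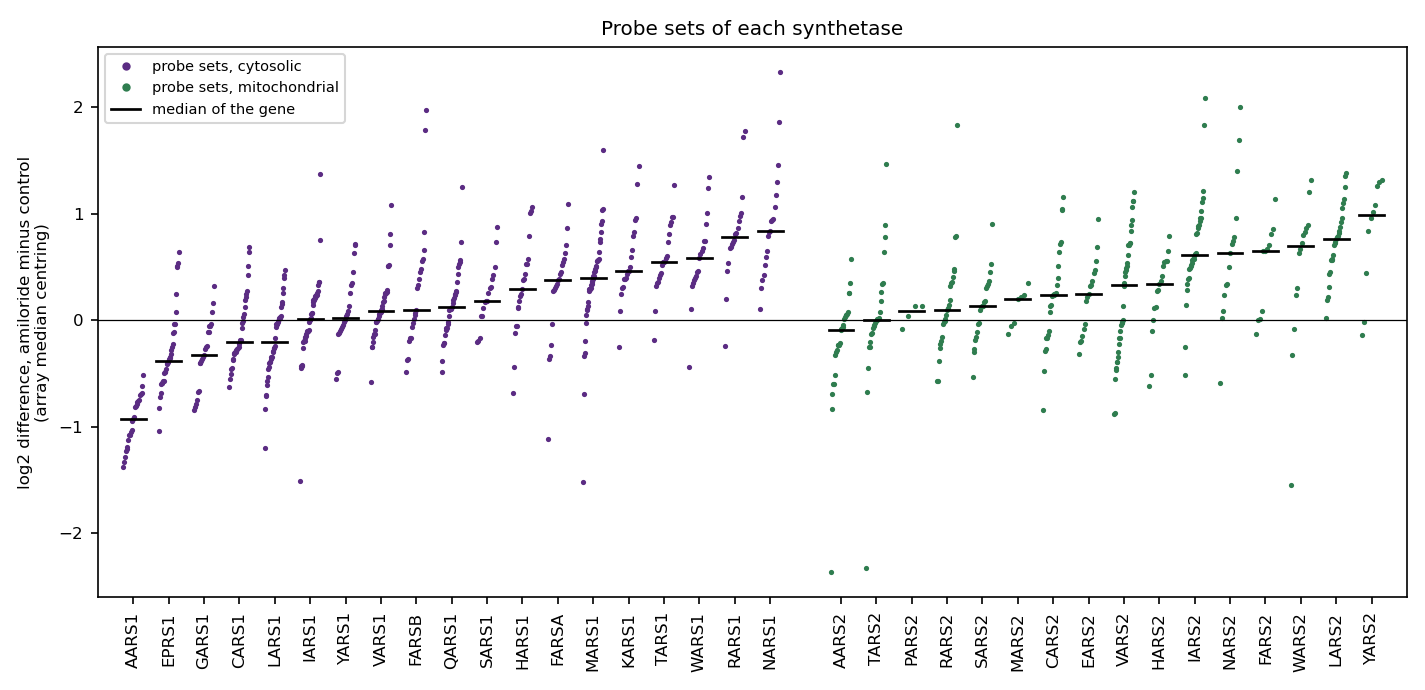
Log2 difference, amiloride minus control after array median centring, of every kept probe set (points) of each member, ordered by the median of the gene (bar). All 25 probe sets of AARS1 lie below 0, and all 19 of NARS1 and 27 of LARS2 lie above 0. Of genes with at least 10 kept probe sets, 0.35% had all of them lower and 5.91% all of them higher.

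The study's criteria for a splicing change, stated for exons, were applied to probe sets, which were not placed on exons here. They ask for a splicing index (here the probe set's log2 ratio less that of its gene) and a log2 ratio of at most -1.585, with a correlation between the mean profiles of at least 0.7. As deposited, 6 member probe sets met them with amiloride lower, in AARS2, EPRS1, IARS1, MARS1 and TARS2, where 0.381% of all probe sets with 1 symbol did, and 2 met the mirrored criteria with amiloride higher, in NARS1 and RARS2, beside 0.229%. With limma on splicing indices 0 of the 826 were called, 9 had an unadjusted p under 0.05 with a higher and 8 with a lower index, against 1.85% and 2.72% of all 269283 probe sets in that fit.

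Most of these probe sets rested on 1 array. The AARS2 probe set read 5.58, 3.75 and 3.79 with amiloride and 6.29, 9.66 and 4.54 in control cells as deposited, with control replicate 2 far above the rest. The MARS1 probe set read 4.40, 3.29 and 4.20 with amiloride and 4.70, 8.60 and 3.42 in control cells, again with control replicate 2 alone. The NARS1 probe set of the other direction read 6.94, 4.31 and 5.93 with amiloride and 1.11, 3.90 and 5.45 in control cells, where control replicate 1 stood low.

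In TARS2, the mitochondrial threonyl enzyme, 2 probe sets met the criteria. One, 2358324, read 2.92, 0.28 and 2.05 with amiloride and 3.18, 6.81 and 2.52 in control cells, and control replicate 2 stood apart. The other, 2358357, lay at the floor of 1 intensity unit (0 on the log2 scale) on all 3 amiloride arrays and at 2.81, 2.0 and 1.58 in control cells, and it was too dim to pass the filter on low values. When control replicate 2 was left out, 3 probe sets of members passed, and just 1 of them was among the 6 above.

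The neighbouring steps of translation were read through lists of genes, of which limma called 0 members as deposited. The scaffold of the complex had AIMP1 and EEF1E1 at 0.67 and 0.76 as deposited and AIMP2 at -0.62. AIMP1 read 4.90, 5.03 and 5.02 after centring with amiloride and 4.24, 4.14 and 4.28 in control cells, and EEF1E1 read 4.94, 4.36 and 4.81 with amiloride and 3.49, 4.09 and 4.0 in control cells. For both, all amiloride arrays lay above all control arrays, while AIMP2 was without overlap below, beside 18.5% and 1.96% of all genes. The adjusted p after centring was 0.182 for AIMP1 and 0.207 for EEF1E1 (limma).

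The mitochondrial translation factors stood highest. Of 13, 12 lay above the median of all genes, with a median log2 fold change of 0.73 as deposited and 0.82 after centring, and 5 were without overlap above as deposited, where 6.68% of genes were. QRSL1, a subunit of the amidotransferase that makes mitochondrial glutaminyl-tRNA from the product of EARS2, read 5.95, 6.18 and 6.03 after centring with amiloride and 3.77, 5.19 and 5.19 in control cells, and the log2 fold change was 1.25 as deposited (unadjusted p = 0.0685) and 1.34 after centring (limma, adjusted p = 0.158). MRRF, the mitochondrial ribosome recycling factor, read 5.41, 5.85 and 5.89 with amiloride and 3.94, 4.64 and 4.85 in control cells, and the log2 fold change was 1.15 as deposited (unadjusted p = 0.0949) and 1.24 after centring (limma, adjusted p = 0.134). The mitochondrial synthetases, at a median of 0.19 after centring, lay much nearer to all genes than these factors did.

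Among the 9 measured genes of tRNA export, repair and editing, 6 lay above the median of all genes and 3 below. XPOT, the exporter of tRNA from the nucleus, read 6.49, 5.28 and 5.19 after centring with amiloride and 5.83, 7.58 and 7.90 in control cells, with both groups spread widely, and the log2 fold change was -1.54 as deposited (unadjusted p = 0.0252) and -1.45 after centring (limma, adjusted p = 0.239). SEPSECS, which completes selenocysteinyl-tRNA, read 5.93, 5.22 and 4.77 with amiloride and 3.92, 5.06 and 4.71 in control cells. The 6 cytosolic elongation factors had a median of 0.044 as deposited, with EEF2 at 0.33 and EEF1G at 0.31.

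Genes that sense or relieve amino acid shortage were divided. Of the 8 eIF2 kinases, their partners and the phosphatase, 6 lay above the median of all genes. EIF2AK4, the GCN2 kinase that uncharged tRNA activates, read 5.07, 5.77 and 5.89 after centring with amiloride and 3.25, 4.39 and 4.50 in control cells, and the log2 fold change was 1.44 as deposited (unadjusted p = 0.0358) and 1.53 after centring (limma, adjusted p = 0.134). EIF2S1, the eIF2 subunit these kinases phosphorylate, read 7.38, 7.95 and 7.97 with amiloride and 5.33, 7.08 and 7.21 in control cells. Its amiloride arrays lay wholly above on either scale, as for 6.68% of genes as deposited and 18.5% after centring. For EIF2S1 the log2 fold change was 1.14 as deposited (unadjusted p = 0.0961) and 1.23 after centring (limma, adjusted p = 0.244). Without control replicate 1 the centred value was 0.63.

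The ATF4 list of 11 genes had a median of -0.32 as deposited, with 5 above and 6 below the median of all genes. DDIT4, an mTORC1 inhibitor induced by stress, read 3.69, 3.29 and 3.20 after centring with amiloride and 3.81, 6.12 and 6.15 in control cells, and the log2 fold change was -2.05 as deposited (unadjusted p = 0.00281) and -1.97 after centring (limma, adjusted p = 0.156). Its groups did not overlap on either scale, where 0.188% of genes lay wholly below as deposited and 1.96% after centring. Without control replicate 1 the centred log2 fold change of DDIT4 was -2.74 (limma, adjusted p = 0.0129), against -1.57 without control replicate 3. CHAC1, which degrades glutathione, read 3.78, 3.61 and 3.57 with amiloride and 4.23, 4.84 and 5.08 in control cells, and ATF4 itself had a log2 fold change of 0.27 as deposited.

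Amino acid transporters lay lowest. Of 10, 9 were below the median of all genes, with a median of -0.64 as deposited. SLC38A2, a carrier of small neutral amino acids, was the exception above it, with 8.85, 9.25 and 8.80 after centring with amiloride and 7.59, 8.45 and 8.59 in control cells. Its groups did not overlap on either scale, where 6.68% of genes lay wholly above as deposited and 18.5% after centring. For SLC38A2 the log2 fold change was 0.67 as deposited and 0.75 after centring (limma, adjusted p = 0.295). SLC7A11, the cystine importer, read 5.11, 3.60 and 3.34 after centring with amiloride and 5.16, 6.17 and 6.36 in control cells, and the log2 fold change was -1.97 as deposited (unadjusted p = 0.00415) and -1.88 after centring (limma, adjusted p = 0.138). SLC7A5, the importer of large neutral amino acids, read 5.89, 4.61 and 4.23 with amiloride and 6.10, 5.89 and 6.88 in control cells, and the log2 fold change was -1.47 as deposited (unadjusted p = 0.0324) and -1.38 after centring (limma, adjusted p = 0.185). Of the 12 amino acid synthesis enzymes, 9 lay below the median of all genes, led by CTH, which makes cysteine, at -1.20 and MTHFD2, of mitochondrial folate metabolism, at -1.08 as deposited. The groups overlapped for both, and the adjusted p after centring was 0.395 for CTH and 0.336 for MTHFD2 (limma). With 1 array left out after centring, CTH ran from -1.83 without control replicate 1 to -0.59 without control replicate 3. MTHFD2 ran from -1.54 without control replicate 1 to -0.69 without control replicate 2.

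**Figure D5:**
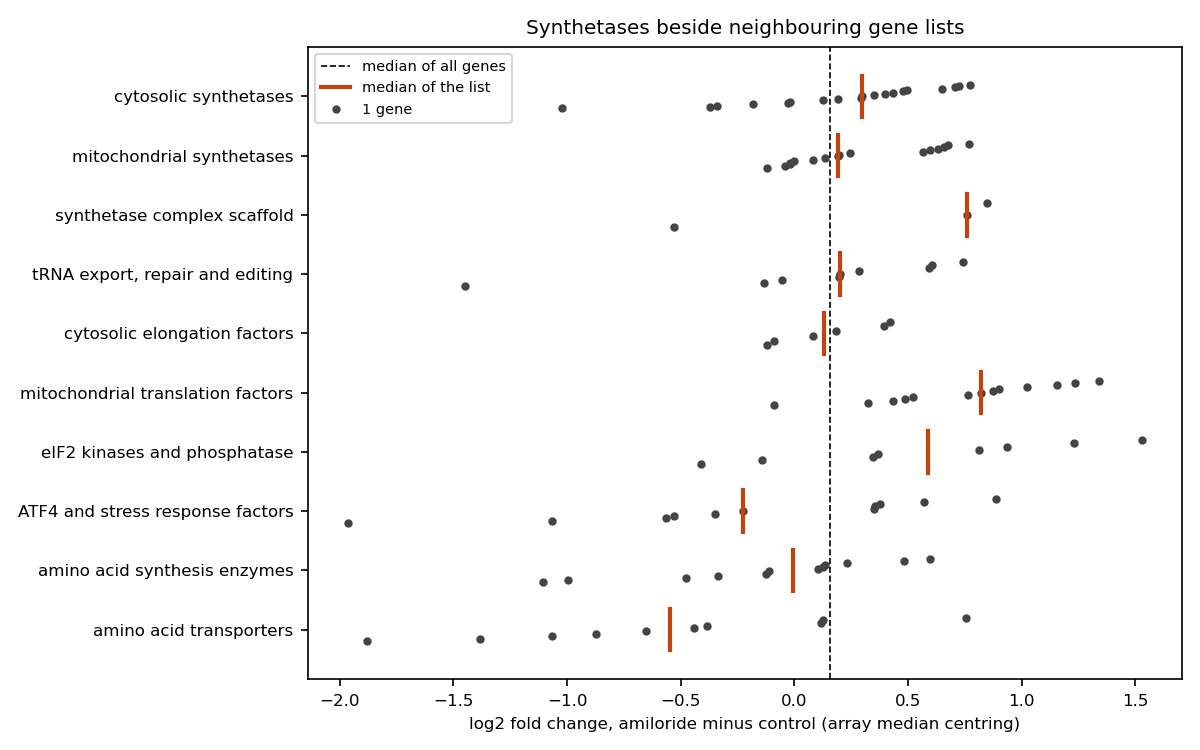
Log2 fold change, amiloride minus control after array median centring, of each gene (points) in the synthetase lists and the neighbouring lists, with the median of each list (red bar) and of all genes (dashed line, 0.16). The cytosolic and mitochondrial synthetases have medians of 0.30 and 0.19, the mitochondrial translation factors 0.82 and the amino acid transporters -0.55.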

How the data were processed

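RNA of 6 Huh-7 samples, 3 with amiloride and 3 untreated, was hybridised to Human Exon 1.0 ST arrays. In dChip the authors corrected the arrays for bias by their background probes, normalized them and reduced every probe set to a model-based value, and the deposited table holds this intensity on a linear scale for the 6 arrays. The genome build in the labels is hg18, and the dChip release differs between the series text and the methods. The number of arrays limits the precision.

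The deposited intensities, with values under 1 set to 1, were taken to log2, and no column was left out (0 columns). Of 1408285 probe sets 357582 carried 1 symbol, 15322 several and 1035381 none in the annotation. Of 19560 symbols, 16472 were current, 2966 were replaced by the current form and 122 were kept. For 4 members (GARS, MARS, QARS and SARS) the old symbol is a synonym of several genes and was read as the current symbol ending in 1. Probe sets were kept if their log2 value averaged 2.80 or more over the arrays, which is the median probe set, and a gene level was the median over at least 3 of them. Levels were fitted in R 4.3.3 with limma 3.58.1 (lmFit and eBayes, two-sided, tables handled with the package data.table in version 1.17.8), with Benjamini-Hochberg adjustment over 17018 genes and a threshold of 0.05. For splicing, means over replicates and all probe sets of a gene were used. The scripts were tested on simulated data. Of the 36 members, 1 is not reported here.

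Members, lists and tests were chosen with earlier results of these data known. All members were named, and of each list the genes past the threshold, or else the 2 with the smallest p. AIMP2, SLC38A2 and ATF4 were named after their values were seen. Replicate block, quantile normalization, array median centring, other filters, a larger added value, the mean over probe sets, an intensity trend and leaving out each array were the alternatives. Centring with an array left out was chosen after seeing the data.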

Additional observations from a re-analysis of the deposited data

How the results depend on the processing

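The labels name no batch and give only a replicate number within each group. Deviations of same-numbered arrays from their group means correlated over genes by 0.18, 0.087 and 0.28. The numbers were not taken to pair the arrays, since this required every value to be over 0.1. Yet 5 of 6 arrays correlated best with their own number. Median intensity also followed the number. With amiloride and in control cells it was 12.0 and 13.1 in replicate 1 and 4.71 and 5.08 in replicate 2. In replicate 3 it was 6.26 and 6.42. The fit as deposited counts such brightness as error. Its median SE was 0.69, against 0.27 with the replicate block. AARS1 had unadjusted p of 0.106 and 0.00544 in these fits (limma). With the replicate block 0 genes were called, and with quantile normalization and the replicate block 4, against 2 in the fit as deposited. The count was 7 with 16 added before log2, 6 with no filter, 1 with a filter at the upper quartile and 1 with the mean over probe sets. Leaving out each array in turn gave 1 to 5 calls as deposited and 0 to 6 after centring, the highest without control replicate 1. Under all 21 alternatives 0 synthetases were called, with a smallest adjusted p of 0.123 (limma, AARS1, quantile normalization with the replicate block, unadjusted p = 0.00584). AARS1 stayed 1.00 to 1.33 log2 units below the median of all genes throughout. In all, 19 of 35 members kept their side of that median under every alternative, 12 above and 7 below. The replicate block, the intensity trend and centring leave every member where it was against that median. Centring with an array left out likewise repeats the uncentred fit without that array. Such settings could not have changed a side, so only the others bear on this count and on the range for AARS1.

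With an array left out the mitochondrial median minus that of all genes ran from -0.053 without control replicate 1 to 0.16 without control replicate 2, against 0.038 with every array, and the cytosolic median minus the mitochondrial one from -0.015 without control replicate 3 to 0.19 without control replicate 2. The lists around the synthetases had 1 call, DDIT4, without control replicate 1 after centring, and 0 otherwise. The 6 lowered splicing probe sets were 1 with 16 added, 3 with the filter on low values and 0 with limma on splicing indices, and 3 to 10 with an array left out, the lowest without control replicate 2 and the highest without control replicate 3. The cause of these differences was not tested. With all 3 arrays per group, the centred difference of -1.02 for AARS1 did not pass adjustment over all genes. Neither did those of -1.97 for DDIT4 and -1.88 for SLC7A11.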

Other observations

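After centring, amiloride arrays lay wholly above control arrays for 4 of the 35 members and wholly below for 1 with every array, and with 1 array left out the counts were 4 to 11 above and 1 to 4 below, beside 21.5% to 27.3% of all genes above and 2.77% to 7.62% below. The highest counts were 11 above without control replicate 2 (25.2% of all genes) and 4 below without amiloride replicate 1 (7.62% of all genes). As deposited 0 members were without overlap, and without amiloride replicate 1 there were 9 below (13.7% of all genes).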
